A study of Mus musculus with 24 samples.

Results

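Splenic CD4+ T cells of wild-type (WT) mice on the C57BL6 background were compared after 6 h and after 3 h of stimulation with anti-CD3/CD28 antibodies, which trigger signalling through the T cell receptor complex and through its main costimulatory receptor. The comparison used 6 of the 24 libraries of the series, chosen by the time and genotype in their labels: 3 libraries at 6 h and 3 at 3 h, from the mice numbered 1, 3 and 4, with the 3 h and 6 h libraries of a mouse forming a pair. The other libraries were WT cells at 0 h (labelled control) and 24 h, and cells of mice 1, 2 and 4 of the Aim2-/- strain, which lack the cytosolic DNA sensor Aim2, at the same 4 times. All mice had the same background. The general methods of the study state that mice were housed together after weaning and that animals were matched for sex and age. The cells were total CD4+ T cells kept by negative selection, so the selection left regulatory and memory T cells in. The sex and age are not given in the sources used here.

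A resting T cell that meets antigen first switches on immediate early genes, whose transcription needs no new protein. Many of these genes encode transcription factors of the AP-1, Egr and Nr4a families, and others encode brakes on receptor and NF-kB signalling. A second wave follows that depends on the products of the first. It brings cytokines, cytokine receptors and the machinery for growth, such as ribosome assembly factors, nucleotide synthesis and chaperones, before the cell enters S phase about a day after activation. The comparison of 6 h with 3 h asks what changed between these waves.

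The 6 libraries held between 20442698 and 21627018 counts each. Levels are given as CPM, counts per 1e6 counts of a library scaled by TMM, and 3 counts correspond to 0.133 to 0.146 CPM. The summed CPM of 10 T cell markers lay between 5032 and 6429, against 10.8 to 29.1 for 10 B cell markers, 31.6 to 79.3 for 12 myeloid markers, 15.2 to 22.7 for 8 dendritic cell markers and 35.1 to 56.9 for 6 NK cell markers, and no marker of these lists was at 0 in all 6 libraries. Of the tested markers of B cells, myeloid cells, dendritic cells and NK cells, 0 passed the test described below. The sum of 7 erythroid markers was 72.8 and 68.8 CPM in the libraries of mouse 3 and 8.36 to 18.6 CPM in the other 4, and 1 of these markers rose. The 2 CD8 genes summed to 7.74 to 10.5 CPM, with 1 of them lower at 6 h, and 6 basophil and mast cell markers to 14.0 to 29.0 CPM, with 1 higher. The part of these differences in the results was not tested.

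The libraries labelled WT mouse 1 went against their label. Aim2 was at 17.0 CPM in mouse 1, 50.7 in mouse 3 and 52.3 in mouse 4 at 3 h, and at 11.48, 33.0 and 32.5 CPM at 6 h. The Aim2-/- libraries lay between 14.6 and 15.1 CPM at 3 h and between 8.18 and 11.4 CPM at 6 h, so the libraries labelled WT mouse 1 were close to the Aim2-/- range at both times. In a principal component analysis of the 6 libraries the first component, with 39.2% of the variance, separated 6 h from 3 h, and the second, with 30.9%, set both libraries of mouse 1 apart from the other 4. Results are therefore also given without this mouse. Aim2 itself was lower at 6 h by 0.63 ± 0.16 on the log2 scale (SE, n = 3 pairs, adjusted p = 0.00483), and without the pairing by mouse this call was lost (adjusted p = 0.42).

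From 3 h to 6 h 51 of 54 tested genes for building ribosomes rose, with 28 of 33 for folding proteins, 37 of 46 of the proteasome, 26 of 33 for making nucleotides, 8 of 14 chemokines and 12 of 25 T helper cytokines. Falls were counted for 11 of 18 genes of the NF-kB list, 14 of 25 cytokine receptors, 18 of 30 genes of the resting state and 10 of 25 immediate early factors. Of 15325 genes tested, 5537 (36.1%) passed an adjusted p of 0.05, 2879 (18.8%) of them higher and 2658 (17.3%) lower at 6 h. Of these, 444 rose and 329 fell by more than 1 on the log2 scale, which is more than 2-fold, and the median log2 fold change of all genes was -0.01. The change had 1 sign in all 3 mouse pairs for 5415 of the 5537 genes, and the CPM of the groups did not overlap for 4766. Both counts follow in part from the call itself, which used the same libraries paired by mouse. Groups did not overlap for 41.2% of all tested genes. Without the libraries labelled WT mouse 1, 2662 genes were higher and 2285 lower, and 4530 genes were in both sets of calls. In bulk samples, a change of RNA per cell and a change in the share of the cells that express a gene cannot be told apart.

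**Figure D1:**
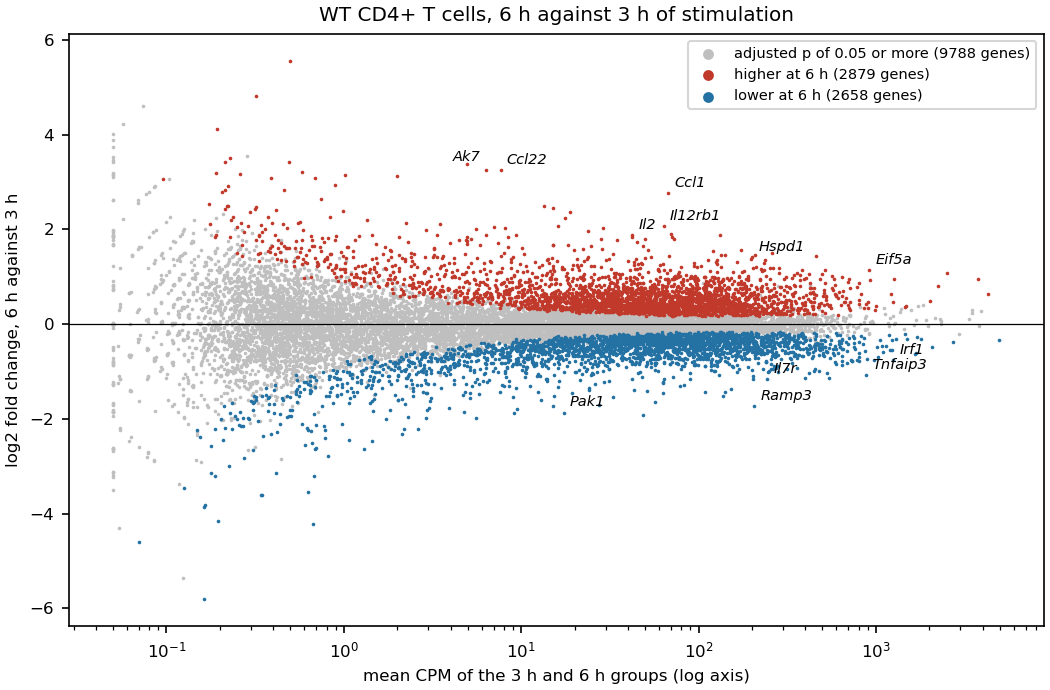
Log2 fold change of each tested gene from 3 h to 6 h in WT cells (vertical axis) against the mean CPM of the groups (horizontal log axis, means under 0.05 CPM drawn at 0.05), with 1 point per gene. Red points are the 2879 genes that rose and blue points the 2658 that fell, and 12 genes are labelled, from Ccl22 and Ak7 at the top to Pak1 and Ramp3 at the bottom.

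Genes that fell had longer transcripts at the median than those that rose, a difference that was not tested. The median length of the longest annotated transcript was 3808 bases for the genes lower at 6 h, 2914 bases for those higher and 2998 bases for all tested genes, and the median GC content was 50.7%, 49.2% and 49.6%. With the trend of each library with length and GC content removed, an alternative chosen after seeing the data, 5620 genes passed the test and 5169 of the 5537 were among them.

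Promoter sequences of 6 genes are shown because they belong to the groups described next and hold, within the window from 250 bases before to 50 bases after the RefSeq start of the gene (GRCm38.p6), an exact match to a site known for its class of regulator. Capitals mark the match: the E-box CACGTG, bound by Myc and its relatives, for ribosome biogenesis; the kappa B site, bound by NF-kB, for its feedback genes; and the CArG box, bound by Srf, for immediate early factors. Utp20 is at chr10:88826765-88827064 (minus strand), Grwd1 at chr7:45830740-45831039 (minus), Tnfaip3 at chr10:19015361-19015660 (minus), Tnip1 at chr11:54962891-54963190 (minus), Egr2 at chr10:67537316-67537615 (plus) and Srf at chr17:46556113-46556412 (minus).
Utp20: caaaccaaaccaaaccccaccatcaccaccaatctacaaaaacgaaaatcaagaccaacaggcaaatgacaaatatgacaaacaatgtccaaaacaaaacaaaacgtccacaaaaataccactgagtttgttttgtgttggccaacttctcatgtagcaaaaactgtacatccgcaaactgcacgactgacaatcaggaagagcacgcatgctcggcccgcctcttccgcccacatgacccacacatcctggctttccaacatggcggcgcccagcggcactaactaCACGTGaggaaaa
Grwd1: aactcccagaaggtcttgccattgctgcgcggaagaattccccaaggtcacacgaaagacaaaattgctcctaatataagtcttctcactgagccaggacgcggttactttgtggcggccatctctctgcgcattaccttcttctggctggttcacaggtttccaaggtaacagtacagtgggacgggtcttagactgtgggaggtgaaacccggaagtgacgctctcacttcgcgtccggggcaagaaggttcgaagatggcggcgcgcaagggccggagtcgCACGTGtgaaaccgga
Tnfaip3: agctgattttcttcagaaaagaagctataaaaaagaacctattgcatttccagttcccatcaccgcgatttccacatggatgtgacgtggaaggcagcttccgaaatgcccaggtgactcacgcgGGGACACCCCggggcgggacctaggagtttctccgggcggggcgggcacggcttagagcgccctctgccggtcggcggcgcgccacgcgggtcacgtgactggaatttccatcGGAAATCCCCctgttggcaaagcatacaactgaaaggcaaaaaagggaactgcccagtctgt
Tnip1: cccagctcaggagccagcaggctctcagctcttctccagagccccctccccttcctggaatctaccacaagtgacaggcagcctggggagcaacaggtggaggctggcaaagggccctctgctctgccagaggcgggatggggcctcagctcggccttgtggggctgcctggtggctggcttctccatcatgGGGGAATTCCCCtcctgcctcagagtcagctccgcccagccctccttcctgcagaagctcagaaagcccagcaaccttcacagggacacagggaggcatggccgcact
Egr2: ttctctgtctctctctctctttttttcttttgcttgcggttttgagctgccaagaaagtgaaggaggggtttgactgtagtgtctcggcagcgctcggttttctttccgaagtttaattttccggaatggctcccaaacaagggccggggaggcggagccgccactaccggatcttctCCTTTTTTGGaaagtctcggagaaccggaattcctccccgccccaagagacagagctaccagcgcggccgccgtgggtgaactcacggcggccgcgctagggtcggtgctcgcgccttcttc
Srf: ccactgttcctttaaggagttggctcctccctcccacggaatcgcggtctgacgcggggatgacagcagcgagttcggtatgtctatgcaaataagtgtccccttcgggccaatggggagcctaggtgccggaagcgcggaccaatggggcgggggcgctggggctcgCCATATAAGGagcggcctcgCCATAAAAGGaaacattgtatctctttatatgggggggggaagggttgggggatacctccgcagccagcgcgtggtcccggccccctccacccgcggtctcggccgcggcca
Utp20 and Grwd1 rose and hold 1 E-box each, downstream of the start. Tnfaip3 and Tnip1 fell, Tnfaip3 with 2 separate kappa B matches and Tnip1 with 3 that overlap in 1 run. Only the site chosen for a gene's list is in capitals, and the Tnfaip3 window also holds the E-box CACGTG and an AP-1 site (TGACTCA) in lower case. Egr2 and Srf rose and hold 1 and 2 CArG boxes. A match is a description of the letters and not evidence of binding.

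Over the 10598 symbols of tested genes with a promoter window, the E-box was present in 11.6%, against 15.8% of the 2256 genes with a window that rose and 10.9% of the 2001 that fell. Of the ribosome biogenesis genes with a window, 12 of 49 (24.5%) held it, as did 5 of 19 immediate early factors (26.3%) and 4 of 20 genes of the sterol list, and over all 32851 windows in the table the share was 7.15%. The kappa B site was present in 14.8% of genes that fell, 11.2% of those that rose, 12.2% of all tested and 8.46% of all windows, and in 8 of 15 genes of the NF-kB list and 8 of 19 immediate early factors. AP-1 sites (TGANTCA) were present in 6.75% of genes that fell, 5.32% of those that rose and 6.28% of all tested. Among genes that changed by more than 1 on the log2 scale, 24 of the 176 falls with a window (13.6%) and 5.14% of the 311 rises held it. In these smaller sets the E-box was present in 14.2% of falls and 18.6% of rises, and the kappa B site in 13.6% and 10.6%. The cyclic AMP response element TGACGTCA was present in 3.46% of genes that rose, 3.80% that fell and 3.53% of all tested. For the C/EBP-ATF element TGATGNAAT these shares were 0.621%, 0.300% and 0.519%. The CArG box was present in 28 genes that rose (1.241%), 30 that fell (1.499%) and 1.538% of all tested. Of 19 immediate early factors with a window, 2 held it, the printed Egr2 and Srf. Both rose, where 4 of the 25 tested factors of this list rose and 10 fell. The exact consensus of the sterol regulatory element was found in 7 windows of tested genes and in 0 of 20 genes of the sterol list. Both strands were searched, a gene with several windows counted once if any held the match, and these shares were not tested.

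Of 14 tested chemokines, 8 rose and 1 fell, with a median log2 fold change of 1.05, the highest of the 30 lists. Ccl22, a ligand of the receptor Ccr4 (chr8:94745590-94751699, plus strand), was at 0.926, 2.27 and 1.03 CPM at 3 h in mice 1, 3 and 4 and at 6.12, 18.5 and 17.0 CPM at 6 h. Every 6 h library was above every 3 h library, and mouse 1 was lowest at both times. The log2 fold change was 3.26 ± 0.26 (SE, n = 3 pairs, adjusted p = 1.62e-08). Ccl1, a ligand of Ccr8, was at 35.3, 10.9 and 8.88 CPM at 3 h and 168, 76.9 and 103 CPM at 6 h, with mouse 1 highest at both times and no overlap (2.77 ± 0.30, adjusted p = 4.47e-07). Ccl17, the other Ccr4 ligand, rose by 1.89, Ccl3 by 1.88, Ccl4 by 1.57, Ccl20 by 1.38 and Xcl1 by 1.30 on the log2 scale. Ccl5, known as a product of effector and memory T cells, fell by 0.70. Ccr4 was the only 1 of 15 chemokine and egress receptors that rose (0.76), and 8 fell, among them Ccr9 by 0.68, Cxcr4 by 0.58 and S1pr1, which guides exit from lymphoid tissue, by 0.57. The count of falling receptors was 5, 4 and 3 without mouse 1, 3 and 4, and the count of rising chemokines was 7, 8 and 7.

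Of 25 tested T helper cytokines 12 rose, 4 fell and 9 did not pass the test, and the median log2 fold change was 0.38. Il2, the growth factor of activated T cells (chr3:37120523-37125959, minus strand), was at 27.4, 15.7 and 11.7 CPM at 3 h and 80.5, 53.2 and 64.2 CPM at 6 h. The groups did not overlap and mouse 1 was highest at both times. The log2 fold change was 1.88 ± 0.17 (adjusted p = 8.22e-08). Il2 had been between 1.34 and 1.85 CPM at 0 h and was between 139 and 149 CPM at 24 h. Among the other rises were Il3 (1.77), Il17f (1.32), Csf2 (1.23), Il13 (1.05), Il17a (0.84), Lta (0.81) and Tnf (0.79). Ifng, the signature cytokine of Th1 cells, was at 69.3, 34.2 and 42.1 CPM at 3 h and 99.2, 63.1 and 121 CPM at 6 h, so the groups overlapped although every mouse rose (0.95 ± 0.23, adjusted p = 0.00229). Its call was lost without mouse 4. Il4 rose by 0.52. Il10 was at 27.0, 9.16 and 8.88 CPM and then 25.6, 6.96 and 8.91 CPM, a difference of -0.14 ± 0.21 that did not pass the test (adjusted p = 0.66). Tgfb3, Il16, Penk and Tgfb1 fell, by 0.30 to 0.79. Without mouse 4 the count of rising cytokines was 7, and without any 1 of the 3 mice the count of falling cytokines was 1.

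**Figure D2:**
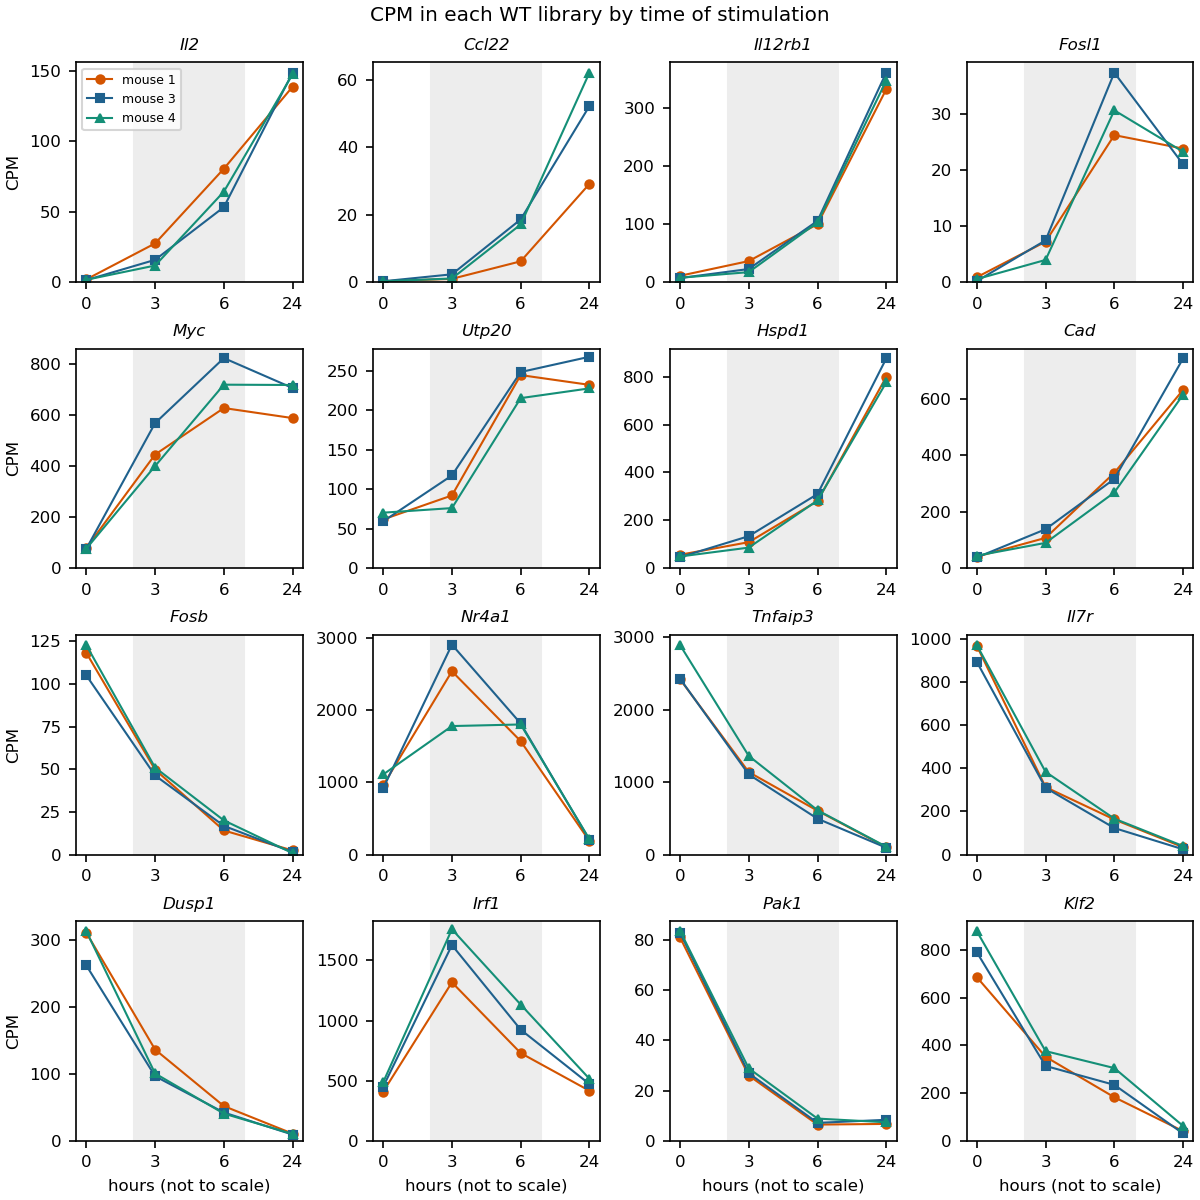
CPM (vertical axes, linear from 0) of 16 genes in each WT library at 0, 3, 6 and 24 h (horizontal axes, hours not to scale), with 1 line per mouse and the 3 h and 6 h libraries shaded. Il2, Hspd1 and Cad rose up to 24 h, Fosl1 was highest at 6 h in all 3 mice, Irf1 was highest at 3 h, and Tnfaip3, Dusp1 and Il7r fell from 0 h on.

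Receptors for cytokines moved the other way: 14 of 25 fell and 3 rose, with a median of -0.32. Il7r, the receptor chain for the survival cytokine of resting T cells, was at 313, 309.7 and 384 CPM at 3 h and 163, 123 and 167 CPM at 6 h. All 3 mice fell and the groups did not overlap (-1.16 ± 0.14, adjusted p = 2.39e-06). The interferon receptor genes Ifngr2, Ifngr1, Ifnar1 and Ifnar2 fell by 0.73, 0.64, 0.53 and 0.51, and the IL-18 receptor genes Il18r1 and Il18rap by 0.63 and 0.49. The exceptions were Il12rb1, Il2ra and Tgfbr1. Il12rb1, the chain shared by the receptors for IL-12 and IL-23 (chr8:70808449-70821424, plus strand), was at 35.9, 22.3 and 16.9 CPM at 3 h and 99.4, 105 and 102 CPM at 6 h. It was highest in mouse 1 at 3 h and nearly equal in the 3 mice at 6 h (2.07 ± 0.21, adjusted p = 3.11e-07). Il12rb2, the partner chain for IL-12, differed by 0.16 and did not pass the test. Il2ra, the high-affinity chain of the IL-2 receptor, was at 457, 567 and 567 CPM at 3 h and 948, 852 and 882 CPM at 6 h (0.76 ± 0.13, adjusted p = 9.01e-05). The third rise was Tgfbr1 (0.43). Without mouse 3 or mouse 4, 9 and 7 receptors passed as lower, and without mouse 1 it was 13.

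Among 19 receptors and ligands of the TNF superfamily, 4 rose (21.1%) and 6 fell (31.6%), against 18.8% and 17.3% of all tested genes. Tnfrsf9 (4-1BB), an activation-induced costimulatory receptor, rose in every mouse, from 539, 461 and 468 CPM to 960.4, 862 and 878 CPM, and Tnfrsf8 (CD30) rose by 1.18. Tnfrsf25, Fas and Tnfrsf1a fell by 0.73, 0.61 and 0.59. Of 24 costimulatory and inhibitory receptors 7 rose (29.2%) and 4 fell (16.7%), against 18.8% and 17.3% of all tested genes. The rises were Cd160, Lag3, Cd200, Havcr2, Pdcd1lg2, Slamf1 and Pdcd1, with log2 fold changes from 0.29 to 0.81. Lag3 was at 68.0, 12.9 and 14.0 CPM at 3 h and 78.7, 31.2 and 32.5 CPM at 6 h, so mouse 1 was high at both times and the groups overlapped. It lost its call without mouse 3 or 4 (adjusted p = 0.0367 with all mice), and the count of rising receptors was 3 without mouse 4. Cd69, an early activation marker, did not pass the test (-0.04 ± 0.14, adjusted p = 0.864).

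Of 25 immediate early factors 10 fell, 4 rose and 11 did not pass the test, with a median of -0.09. Fosb, an AP-1 subunit, was at 49.7, 46.3 and 50.9 CPM at 3 h and 14.1, 16.8 and 20.01 CPM at 6 h, with no overlap (-1.53 ± 0.15, adjusted p = 1.99e-07). Its highest levels were those at 0 h, 118, 105 and 123 CPM. Klf4 fell by 1.30, Fosl2 by 0.95, Klf6 by 0.63, Fos by 0.49 and Junb by 0.44. Nr4a1 (Nur77), a reporter of receptor signalling, was at 2536, 2905 and 1778 CPM at 3 h and 1569.6, 1814 and 1800.2 CPM at 6 h. It fell in mice 1 and 3 and was level in mouse 4, and the groups overlapped (-0.47 ± 0.16, adjusted p = 0.0221). Its call was lost without mouse 1 (adjusted p = 0.195) and without mouse 3. The related Nr4a2 and Nr4a3 fell by 0.57 and 0.45. Several of these genes were already lower at 3 h than at 0 h. In the comparison of 3 h with 0 h, which shares the 3 h libraries, the log2 fold changes were -1.64 for Klf4, -1.23 for Fosb, -1.08 for Klf6, -0.98 for Fosl2 and -0.79 for Junb, all of which passed the test, whereas Fos (-0.13) did not pass. Nr4a1 and Nr4a2 had risen by 1.27 and 0.69 up to 3 h.

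The 4 immediate early factors that rose were Fosl1, Myc, Egr2 and Srf. Fosl1 (Fra-1), an AP-1 subunit that is itself an AP-1 target (chr19:5447547-5455946, plus strand), was at 7.18, 7.41 and 3.93 CPM at 3 h and 26.2, 37.3 and 30.6 CPM at 6 h. It rose in all mice without overlap (2.36 ± 0.26, adjusted p = 5.82e-07), the opposite direction to Fosb, Fosl2 and Fos. Myc, the regulator of growth and of ribosome production, was at 446, 569 and 401 CPM and then 628, 824 and 719.6 CPM, again without overlap (0.62 ± 0.13, adjusted p = 6.29e-04). Egr2, a factor of both activation and tolerance, went from 419.5, 406 and 248 CPM to 496, 517 and 458 CPM (0.48 ± 0.15, adjusted p = 0.0189), and its call was lost without mouse 4. Srf rose by 0.41.

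The NF-kB list fell without a rise: 11 of 18 genes were lower, 0 higher and 7 did not pass, with a median of -0.33. Tnfaip3 (A20), the ubiquitin-editing brake on NF-kB whose promoter is printed above, was at 1137, 1105 and 1361 CPM at 3 h and 605, 494 and 612 CPM at 6 h. Every 6 h library was well below every 3 h library (-1.07 ± 0.08, adjusted p = 7.76e-09). The adhesion molecule Icam1 fell by 0.66, the regulators Nfkbiz, Tnip1 and Nfkbia by 0.65, 0.57 and 0.39, and the subunits Relb and Nfkb2 by 0.37 and 0.25. Rela, Rel and Nfkb1 had log2 fold changes of -0.05, -0.17 and -0.11 that did not pass the test. In the comparison of 3 h with 0 h, which shares the 3 h libraries, Tnfaip3 and Tnip1 (both -1.10), Birc2 (-0.58) and Traf1 (-0.38) were already lower. Icam1 (0.96) and Bcl3 (0.63) had risen up to 3 h, and the other genes of the list that fell from 3 h to 6 h did not pass that test. Without mouse 1 10 genes of this list fell and 1 rose.

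Other feedback genes moved in both directions. Of 24 inhibitors of receptor and cytokine signalling 8 rose (33.3%), 6 fell (25%) and 10 did not pass the test, with a median of 0.03. Of all tested genes 18.8% rose and 17.3% fell. Dusp1, a phosphatase of MAP kinases, fell from 137, 96.7 and 101 CPM to 52.0, 42.4 and 40.8 CPM (-1.30 ± 0.10, adjusted p = 1.94e-08), Rgs2 fell by 0.99 and Socs3 by 0.88. Spry1, an inhibitor of Ras signalling, rose from 179, 160.4 and 74.9 CPM to 383, 426 and 325 CPM (1.51 ± 0.19, adjusted p = 3.41e-06), Rgs16 by 1.19, the ERK phosphatase Dusp6 by 1.00 and Spred1 by 0.85. Neither Dusp1 nor Spry1 overlapped between the times. The count of rising inhibitors was 7, 5 and 4 without mouse 1, 3 and 4. Among 16 mRNA decay factors, which shorten the life of cytokine messages, 5 fell and 1 rose: Tob1 fell by 0.80 and Zc3h12a (Regnase-1) by 0.62, whereas Zfp36l1 rose by 0.34.

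**Figure D3:**
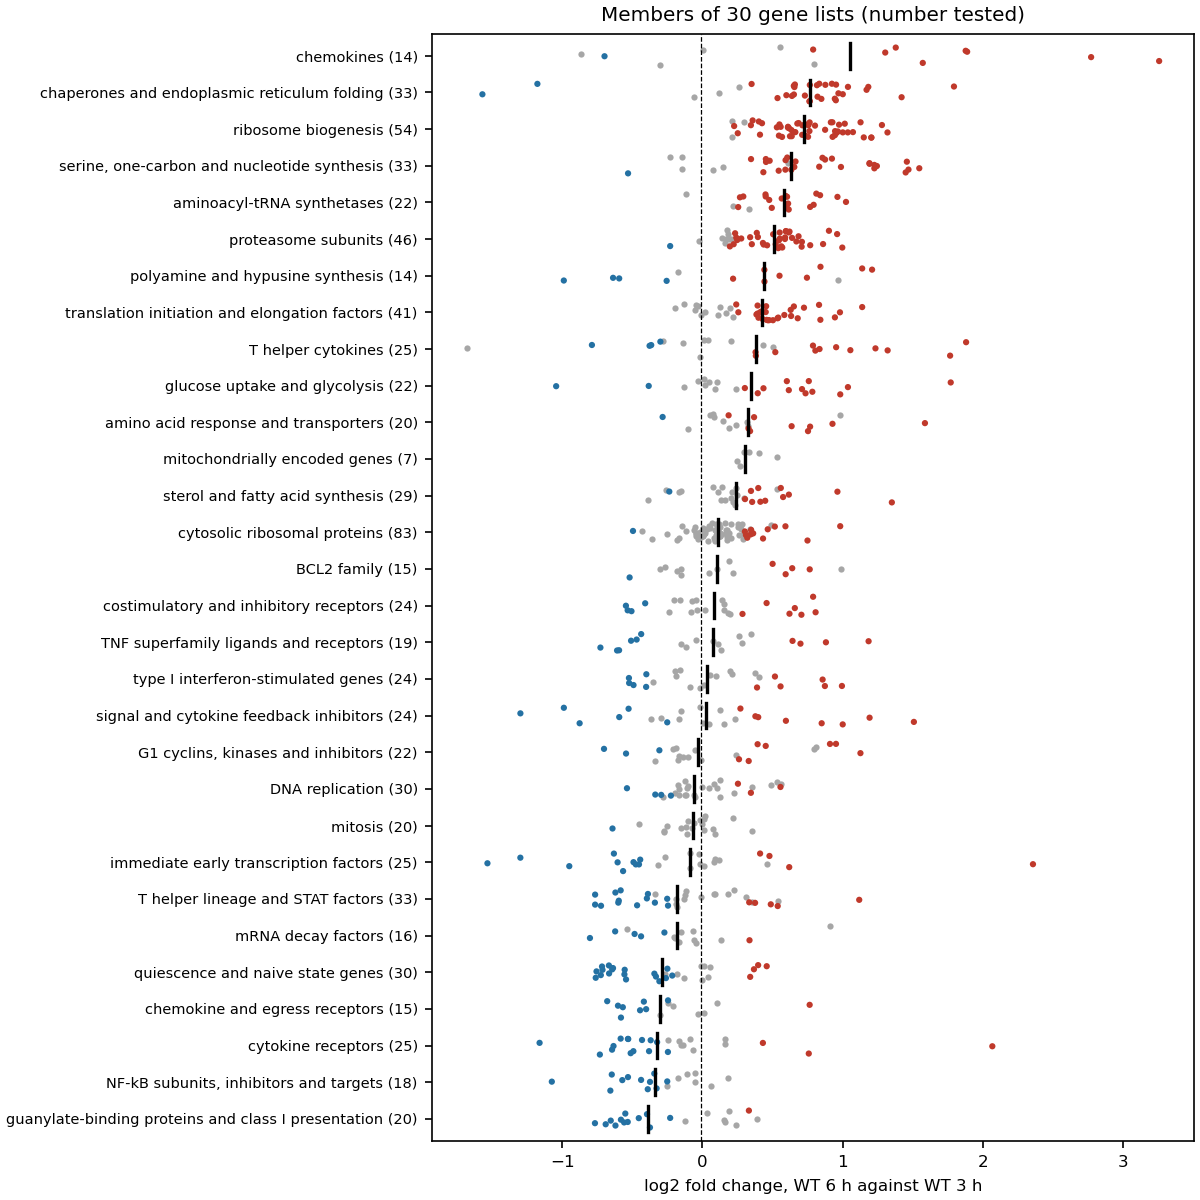
Log2 fold change from 3 h to 6 h in WT cells (horizontal axis) of every tested member of 30 gene lists, with 1 point per gene, red where it rose, blue where it fell and grey where it did not pass the test. Black bars are list medians, the dashed line is the median of all genes (-0.01), and the medians run from 1.05 for chemokines to -0.38 for guanylate-binding proteins and class I presentation.

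Ribosome biogenesis was the most uniform group. Of 54 tested genes 51 rose and 0 fell, with a median log2 fold change of 0.72, and their summed share of all counts went from 0.916% at 3 h to 1.59% at 6 h. Utp20, a component of the small subunit processome, was at 92.3, 118 and 76.3 CPM at 3 h and 245, 249 and 216 CPM at 6 h. The groups were far apart (1.32 ± 0.13, adjusted p = 1.40e-07). Gar1, a protein of the RNA-guided pseudouridylation complex, rose from 60.2, 67.3 and 37.9 CPM to 113, 159 and 127 CPM, and its partners Nhp2, Nop10 and Dkc1 rose by 1.20, 1.04 and 1.02. The nucleolar proteins Npm1 and Ncl rose by 1.15 and 1.07. The RNA polymerase I subunits Polr1b, Polr1e, Polr1a and Polr1c rose by 0.76, 0.62, 0.57 and 0.23. Taf1d, Noc4l and Nle1 (0.21, 0.21 and 0.29) did not pass the test. The count was 50 without mouse 1, 47 without mouse 3 and 45 without mouse 4.

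The ribosomal proteins themselves did not move in this way. Of 83 tested genes 13 rose, 1 fell and 69 did not pass the test, with a median of 0.11. The list includes the paralogs Rps27l and Rpl7l1, which had the largest rises (0.98 and 0.75), and Rps13 fell by 0.49. The count of rises depended on the mice, at 23, 7 and 4 without mouse 1, 3 and 4. The list held 2.25% of counts at 3 h and 2.38% at 6 h. Many of these genes have processed copies in the genome, between which the counting may have divided or dropped reads, so their values are uncertain.

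Of 41 translation factors 29 rose and 0 fell, and of 22 aminoacyl-tRNA synthetase genes 19 rose and 0 fell, with medians of 0.43 and 0.58. Eif5a, the factor that carries the polyamine-derived residue hypusine, rose from 595, 619.8 and 502 CPM to 1123, 1406 and 1254 CPM (1.14 ± 0.11, adjusted p = 1.49e-07). The cap-binding protein Eif4e rose by 0.84, whereas Eef2 and Eif4a2 (-0.05 and -0.19) did not pass the test. Among the synthetases, Farsb and Wars had the largest rises (1.02 and 0.96), and Qars (-0.12) did not pass. Of 14 polyamine and hypusine genes 8 rose and 4 fell: the spermidine synthase Srm rose by 1.21 and Amd1 by 0.75, while Odc1, whose enzyme starts the pathway, fell by 0.59 and the catabolic Smox and Sat1 by 0.99 and 0.64. Of 20 amino acid response and transport genes 9 rose, 1 fell and 10 did not pass the test, with Slc7a5 (0.77), the large neutral amino acid carrier, and Asns (0.75) among the rises. Without mouse 4, 4 of these 20 rose.

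Nucleotide and one-carbon synthesis rose in 26 of 33 genes, and 1 fell. The median was 0.63. Cad, which encodes the first enzymes of pyrimidine synthesis, was at 107, 138 and 89.7 CPM at 3 h and 338, 316 and 268 CPM at 6 h, without overlap (1.47 ± 0.14, adjusted p = 9.62e-08). Nme1 rose by 1.55, the folate enzymes Mthfd1, Shmt1, Mthfd1l and Shmt2 by 1.46, 1.45, 1.23 and 1.19, the serine synthesis genes Phgdh and Psat1 by 1.24 and 1.23, and the purine enzyme Gart by 1.19. Genes of this list that serve S phase had small values that did not pass the test: Tyms (-0.14), Rrm1 (0.08) and Rrm2 (-0.23). Dctd, a deaminase that supplies dUMP and lies outside the list, was at 6.02, 7.51 and 5.23 CPM and then 22.3, 29.6 and 26.4 CPM (2.06 ± 0.14, adjusted p = 3.06e-09).

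Protein folding and turnover rose as well. Of 33 chaperone genes 28 rose and 2 fell, the median was 0.77, and their share of all counts went from 1.14% to 1.99%. Hspd1, the mitochondrial chaperonin, was at 109, 134 and 86.3 CPM at 3 h and 281, 309.995 and 283 CPM at 6 h (1.42 ± 0.13, adjusted p = 7.55e-08). Sdf2l1, a cofactor in the endoplasmic reticulum, went from 14.2, 13.9 and 9.81 CPM to 34.5, 51.2 and 45.9 CPM (1.79 ± 0.14, adjusted p = 2.01e-08), and neither gene overlapped between the times. Hsp90b1, Hsp90ab1, Hspa8 and Calr rose by 1.00, 0.95, 0.94 and 0.92, and 8 genes of the cytosolic chaperonin, Tcp1 and Cct2 to Cct8, rose by 0.54 to 0.97. The only falls were Hspa1a and Hspa1b (by 1.57 and 1.18), stress-inducible genes so alike in sequence that their values cannot be separated with confidence. Of 46 proteasome genes, assembly chaperones included, 37 rose and 1 fell, with a median of 0.51. The assembly chaperones Psmg1 and Psmg4 rose most (1.00 and 0.96), and the one fall was the interferon-inducible subunit Psmb9 (by 0.23), a call lost without any 1 of the mice. The counts of rises without mouse 1 were 28 and 38.

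Glycolysis and lipid synthesis rose in part. Of 22 genes for glucose uptake and glycolysis 12 rose and 2 fell, with a median of 0.35. Hk2, the inducible hexokinase, was at 15.6, 20.1 and 12.01 CPM and then 54.2, 57.1 and 50.004 CPM (1.77 ± 0.17, adjusted p = 1.19e-07), whereas the constitutive Hk1 fell by 0.38. Pgam1, Aldoa, Pkm and Ldha rose by 0.74, 0.71, 0.62 and 0.60, Slc2a1 (Glut1) by 0.30, and Gapdh (0.02) and Slc2a3 (-0.03) did not pass the test. The lactate exporter Slc16a3 fell by 1.04 and Slc16a1 rose by 0.78. Of 29 sterol and fatty acid genes 11 rose and 1 fell, led by Acaca, the first committed enzyme of fatty acid synthesis (16.6, 16.7 and 17.4 CPM, then 43.9, 43.8 and 41.8 CPM).

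Of 22 genes of G1 control 7 rose, 3 fell and 12 did not pass the test, with a median of -0.03, and the D-type cyclin and its kinases were among the rises. Cdk4 was at 146, 159 and 123 CPM and then 277, 353 and 307 CPM (1.13 ± 0.10, adjusted p = 5.16e-08), Ccnd2 was at 787, 1012 and 809 CPM and then 1595, 1656 and 1787 CPM (0.95 ± 0.14, adjusted p = 1.96e-05), and Cdk6 rose by 0.91. Rb1 and the inhibitor Cdkn1b fell by 0.70 and 0.54. Of 30 DNA replication genes 3 rose, 4 fell and 23 did not pass the test, and of 20 mitosis genes 0 rose and 1 fell (Cenpa, by 0.65). The medians of these lists were -0.06 and -0.07, and no test between the phases was run. Mki67 (0.02), Top2a (0.01) and Ccnb1 (0.07) did not pass. Of 15 genes of the BCL2 family 4 rose (26.7%) and 1 fell (6.67%), against 18.8% and 17.3% of all tested genes. Bcl2l1 (Bcl-xL), which protects from apoptosis, rose by 0.64, but so did the pro-apoptotic Bid (0.77), Bik (0.59) and Bax (0.50).

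Genes of the resting state fell. Of 30 quiescence and naive state genes 18 fell and 4 rose, with a median of -0.29. Gimap6 (-0.75) and Gimap3 (-0.64), GTPases of resting lymphocytes, Pik3ip1 (-0.72), a brake on PI3K, Tsc22d3 (-0.72) and Txnip (-0.71) were among the falls. Klf2, which maintains quiescence and lymph node homing, was at 352, 314 and 376 CPM at 3 h and 183, 235 and 305 CPM at 6 h, without overlap (-0.56 ± 0.15, adjusted p = 0.00626). The fall was largest in mouse 1, and without it the value was -0.36 with an adjusted p of 0.147. Tcf7, Lef1 and Foxo3 (0.06, -0.13 and 0.04) did not pass the test, and Bach2, Igfbp4, Foxp1 and Slfn2 rose by 0.34 to 0.46. The count of falls was 16, 13 and 14 without mouse 1, 3 and 4.

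Of 33 lineage and STAT factors 13 fell and 5 rose. Stat3 was at 836, 860.5 and 1048 CPM and then 519, 501 and 593 CPM (-0.76 ± 0.08, adjusted p = 3.14e-07), and Stat4, Stat5b and Stat2 fell by 0.60, 0.60 and 0.58. Gata3, the Th2 regulator, fell by 0.25, a call lost without mouse 4. Foxp3, the regulator of Treg cells (-0.19 ± 0.14), Tbx21, that of Th1 cells (0.09 ± 0.19), and Irf4 (0.31 ± 0.16) did not pass the test. Without mouse 4, 8 of the 33 fell.

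Of 20 genes for guanylate-binding proteins, related GTPases and class I presentation 12 fell and 1 rose, with the lowest median of all lists (-0.38). Irf1, the factor downstream of interferon-gamma, was at 1318, 1627 and 1759 CPM and then 729.7, 924 and 1133 CPM (-0.76 ± 0.08, adjusted p = 5.21e-07). Gbp4 was at 1021, 1267 and 1525 CPM and then 582, 764 and 1036 CPM, so that only mouse 4 at 6 h reached the level of mouse 1 at 3 h (-0.69 ± 0.15, adjusted p = 9.20e-04). Gbp genes lie in clusters of close relatives, which makes the values of single members uncertain. Of 24 genes of the type I interferon response 6 rose (25%) and 5 fell (20.8%), against 18.8% and 17.3% of all tested genes. Bst2, Oas3 and Ifi44 rose by 0.99, 0.87 and 0.86, and Usp18, Irf9 and Irf7 fell by 0.52, 0.52 and 0.49. Without mouse 3, 2 of the 24 rose and 3 fell. Of 13 mitochondrially encoded genes in the deposited counts 7 were tested, and the filter on low counts left the others out. None of the 7 passed the test (0 higher, 0 lower, median 0.30). mt-Cytb was at 3684, 3597 and 3313 CPM at 3 h and 3296, 5012 and 4512 CPM at 6 h, so it fell in mouse 1 and rose in the other mice. Without mouse 1, 5 of the 7 rose.

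By size, the leading rises with at least 10 CPM at 6 h and no overlap were Ak7, Ccl22, Ccl1, Crabp2, Npas2, Fosl1, Il12rb1, Dctd, Akr1c18, Itih5, Npas4 and Car12. Ak7, an adenylate kinase known from cilia, was at 1.57, 1.46 and 0.607 CPM at 3 h and 12.5, 12.1 and 9.69 CPM at 6 h (3.26 ± 0.27, adjusted p = 2.52e-08), and at 5.07, 5.19 and 3.54 CPM at 24 h. Crabp2, which carries retinoic acid to the nucleus, rose by 2.48. The transcription factors Npas2, a relative of Clock, and Npas4, known from active neurons, rose by 2.45 and 2.02. Npas2 was at 4.40, 5.15 and 4.39 CPM at 3 h and 20.9, 24.7 and 31.6 CPM at 6 h, without overlap.

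The leading falls were Pak1, Samd11, Ramp3, Cyp2d22, Mpp7, St8sia6, Gtf2ird1, Fosb, Kcnip2, Pou6f1, Plagl1 and Arhgef10. Pak1, a kinase downstream of Rac and Cdc42 (chr7:97788541-97912381, plus strand), was at 26.0, 26.9 and 28.9 CPM at 3 h and 6.47, 7.16 and 8.86 CPM at 6 h. It had the smallest p of all genes (-1.87 ± 0.11, adjusted p = 7.19e-10), and at 24 h it lay between 6.74 and 8.38 CPM. Ramp3, which modifies the calcitonin receptor-like receptor, fell from 377, 288 and 279.9 CPM to 83.9, 93.5 and 110.1 CPM (-1.73 ± 0.15, adjusted p = 5.15e-08) and was under 5 CPM at 24 h. Mpp7, a scaffold protein, was at 35.05, 42.9 and 48.1 CPM at 3 h, above its 15.6 to 19.5 CPM at 0 h, and back at 10.8, 12.1 and 15.7 CPM at 6 h. Gtf2ird1 was at 13.0, 15.3 and 11.9 CPM at 3 h, 7.27, 3.50 and 3.12 CPM at 6 h and 24.1, 27.8 and 24.7 CPM at 24 h, so that 6 h was its lowest time. All 24 leading genes kept their call without any 1 of the 3 mice.

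**Figure D4:**
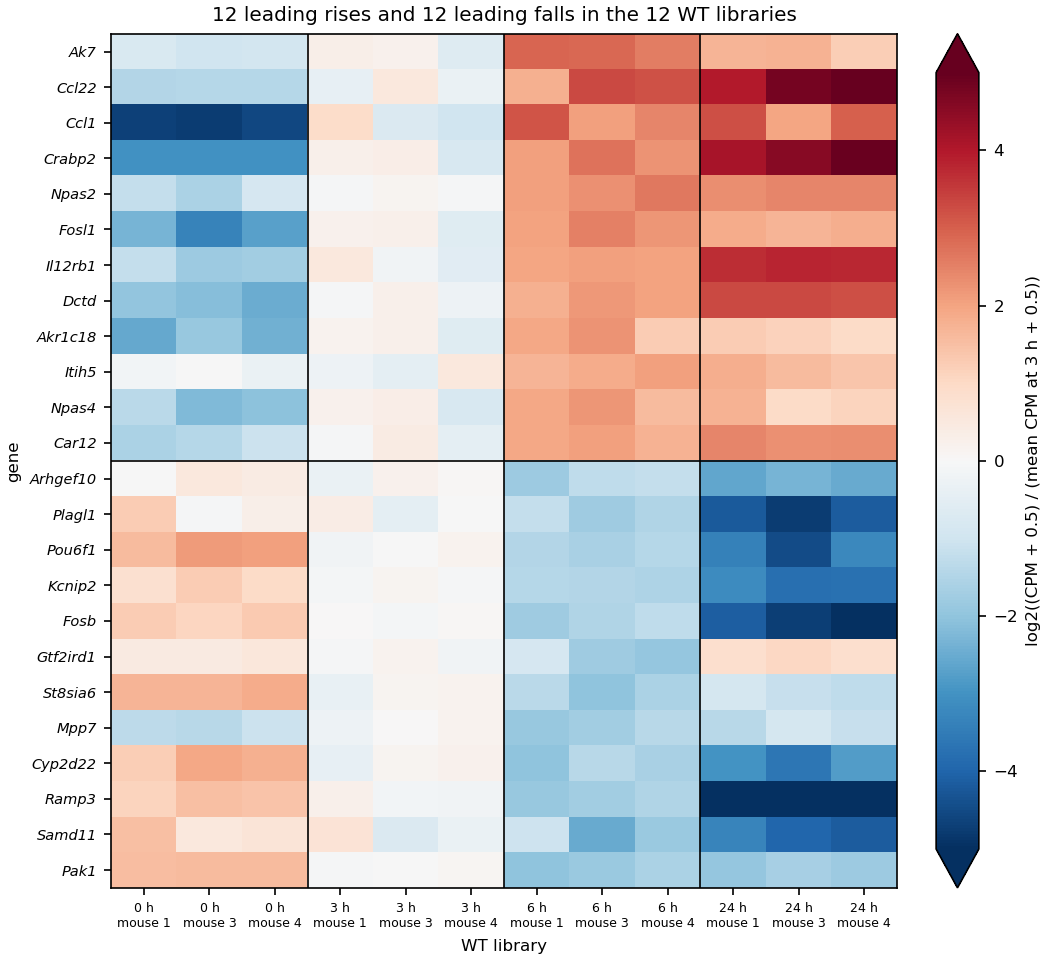
Levels of the 12 leading rises and 12 leading falls (rows) in the 12 WT libraries (columns, by time and mouse), coloured by log2 of CPM + 0.5 over the mean CPM at 3 h + 0.5, with red higher and blue lower. The 3 h and 6 h columns differ in colour in every row, Ak7 is highest at 6 h, Gtf2ird1 is lowest at 6 h, and Ccl22 and Crabp2 rise further at 24 h.

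How far the 6 h change pointed to the later state was read from the comparison of 24 h with 0 h, which shares no library with that of 6 h with 3 h, though both come from the same mice. Of the 2879 genes higher at 6 h than at 3 h, 2530 (87.9%) were higher at 24 h than at 0 h and 133 (4.62%) lower, where 38.6% of all tested genes were higher and 37.7% lower. Of the 2658 genes lower at 6 h, 2255 (84.8%) were lower at 24 h than at 0 h and 181 (6.81%) higher. These sets made up 42.7% of all genes higher at 24 h and 39.1% of all genes lower.

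Cells of Aim2-/- mice went through the same interval and share no library with the WT comparison. In them 5438 genes (35.5%) passed the test, 3065 higher and 2373 lower at 6 h. Of the genes that passed in either genotype, 3569 passed in both, which is 64.5% of the WT set and 65.6% of the Aim2-/- set, and 3554 of them had the same sign. Across genes, which are not independent, the log2 fold changes correlated with Pearson's r = 0.574 and Spearman's rho = 0.629. In the Aim2-/- cells 36 of 54 ribosome biogenesis genes rose with a median of 0.37, 27 of 33 chaperones with a median of 0.46, 41 of 46 proteasome genes with a median of 0.39 and 22 of 33 nucleotide genes with a median of 0.53, while 12 of 18 NF-kB genes fell. Counts of other lists were less alike. All 7 tested mitochondrially encoded genes rose in the Aim2-/- cells against 0 in WT cells, and 27 cytosolic ribosomal proteins rose against 13. Both WT counts were higher without the libraries labelled WT mouse 1, and the WT count of ribosomal proteins was lower without mouse 3 or mouse 4, as given above. Of the feedback inhibitors 5 rose and 9 fell, against 8 and 6 in WT cells, and of the costimulatory and inhibitory receptors 2 rose and 5 fell, against 7 and 4. These differences between lists were not tested. Il2 rose by 1.34 ± 0.17 in Aim2-/- cells, Il12rb1 by 1.26 ± 0.21, Utp20 by 0.69 ± 0.13 and Cad by 0.78 ± 0.14.

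The difference of the change between genotypes was tested for every gene, and 0 of 15325 passed with edgeR, with a smallest adjusted p of 0.0539. At an unadjusted p of 0.05 the number was 2385. Other settings did make calls, among them 3 genes with the GC and length correction, 379 with DESeq2 and 589 without a filter on low counts, and leaving out single libraries or mice gave 0 to 22, so this count depends on the processing. The mean absolute change of log2 CPM per mouse over all genes was 0.416, 0.456 and 0.507 in the WT mice 1, 3 and 4 and 0.459, 0.470 and 0.443 in the Aim2-/- mice 1, 2 and 4. The means were 0.459 ± 0.046 and 0.457 ± 0.013 (SD, n = 3), a difference of 0.00203 (exact permutation test, two-sided, p = 1, where the smallest possible p is 0.1). Without the libraries labelled WT mouse 1 the difference was 0.0240 and again 0 genes passed the test of the genotype difference.

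**Figure D5:**
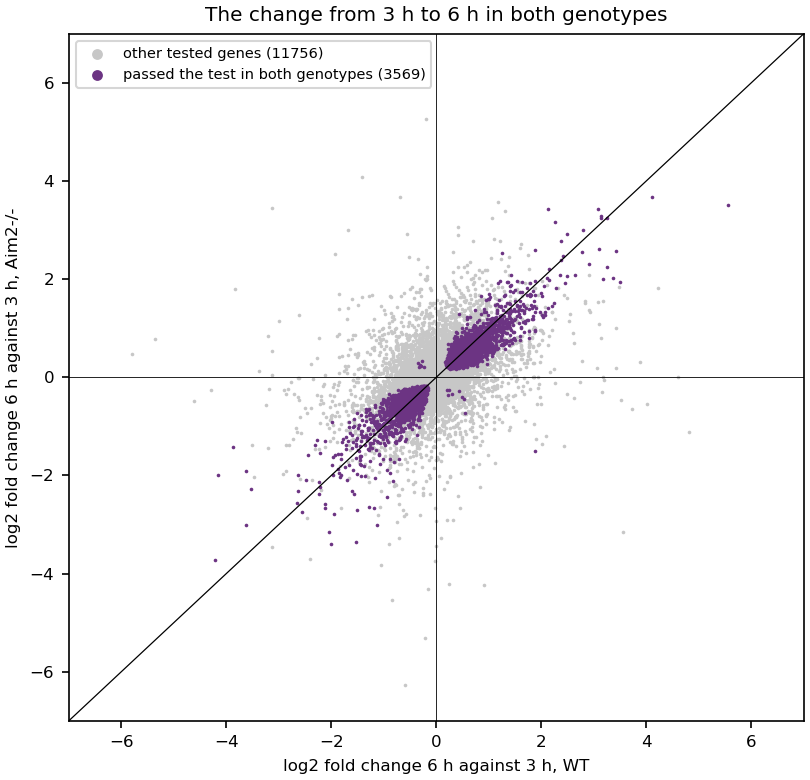
Log2 fold change from 3 h to 6 h in Aim2-/- cells (vertical axis) against that in WT cells (horizontal axis), with 1 point per tested gene and the line of equal change. Purple points are the 3569 genes that passed the test in both genotypes, of which 3554 lie in the quadrants of equal sign, and grey points are the other 11756.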

How the data were processed

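Splenic CD4+ T cells were stimulated, and per the labels mRNA libraries were made with a strand-specific kit. Reads were aligned by the authors with STAR (GRCm38, Ensembl release 94), who deposited raw counts per gene, without normalization, for 54446 genes in 24 libraries. The counter and its strand setting are not given in the sources used here, so values of antisense, overlapping and near-identical genes are uncertain. CPM, computed here from the deposited counts, are counts per 1e6 counts of a library scaled by its TMM factor. Symbols and lengths came from GENCODE M21, which matched 54409 genes.

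Computed from these counts were TMM factors, CPM and the two-sided quasi-likelihood F test of edgeR 4.0.16 (R 4.3.3) on all 24 libraries. The model had 1 mean per genotype and time and mouse within genotype as a block. The filterByExpr filter (minimum count 10) kept 15325 genes, which held 99.9% of counts, and left 16042 genes with counts untested. The common dispersion was 0.00956 with 12 residual degrees of freedom. Adjusted p values are those of Benjamini and Hochberg over all tested genes, and log2 fold changes and their SE come from the fit. The pairing comes from the mouse number in the labels: deviations from group means of the 3 h and 6 h libraries correlated with r of 0.539, 0.391 and 0.362 within mice 1, 3 and 4 and between -0.377 and 0.0742 across mice. The RNA sequencing shown in the study is of naive T cells and of cells in Treg culture, not of this time course. Its methods name limma-voom for RSEM counts, and voom (limma 3.58.1) was an alternative. On simulated data, of 14743 genes, the WT comparison recovered 57.9% of 95 genes changed by 1.5-fold and 70.8% of 96 changed by 2-fold, with 6 other calls. Far fewer genes changed in the simulation than were called in the data. The adjusted p threshold was therefore stricter there, and these shares are not the recovery in the data.

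Library totals of all 24 libraries lay between 19715161 and 21627018, and the floor of 3 counts covers counting error only. Labels say that libraries of a group came from different mice. Members of a group differed by more than sampling noise (chi-square per degree of freedom of 10.7 to 42.0), so none was treated as a duplicate.

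Genes named are the anchor genes (Aim2, Il2, Il2ra, Myc, Cd69, Nr4a1, Egr2, Irf4, Klf2, Il7r, Ifng, Il10, Foxp3, Tbx21 and Gata3, with some genes of the rule not reported here), the 12 largest rises and 12 largest falls that passed the test with no overlap, 1 sign in all pairs and at least 10 CPM in the higher group, and up to 2 rises and 2 falls per list, with at least 5 CPM. Other list members were named after their values were seen, to describe the list. The comparison, the lists and the rule were chosen with earlier results of these data known, so list counts are descriptions and received no set test. Alternatives were RLE factors, library totals, no filter, a mean of at least 1 CPM, no block, only the 6 or the 12 WT libraries, voom, DESeq2 1.42.0, each library or mouse left out and, chosen after seeing the data, removal of GC and length trends. Promoter sequences are from RefSeq (GRCm38.p6), with windows for 10599 of the 15325 tested genes, which carry 10598 symbols.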

Additional observations from a re-analysis of the deposited data

How the results depend on the processing

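Under the alternatives run, no gene that passed the test in the main analysis and in an alternative changed its direction, and of 125 named genes 89 kept their call in every setting. The number of genes called from 3 h to 6 h was 5537, against 5196 to 5621 with other size factors, filters, tools or sets of libraries. Without the mouse block it was 3945, of which 3942 were among the 5537, and genes lower at 6 h were 1770 instead of 2658. Without the block 22 named genes lost their call, among them Ifng, Klf2, Lag3, Egr2, Gata3, Bach2 and Aim2, and the Aim2-/- comparison gave 3571 genes instead of 5438. Leaving out each WT library of the comparison or each WT mouse gave 3520 to 5121 called genes, 1579 to 2389 of them lower, with the lowest number without WT mouse 4 (3520) and 4947 without WT mouse 1, and leaving out each Aim2-/- mouse gave 5230 to 5805. The share of higher genes among the calls was 52.0%, 48.0% with RLE factors and 49.4% with library totals.

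The genotype difference had 0 genes in the main analysis, and 0 with RLE factors, library totals or no block. It had 589 without a filter, 60 with a mean of at least 1 CPM, 26 with voom, 379 with DESeq2, 3 with the GC and length correction and 0 to 22 when libraries or mice were left out. The cause was not tested. The WT minus Aim2-/- difference in the size of the change per mouse lay between -0.0219 and 0.0240 when mice were left out, with the sign reversed without WT mouse 4 or Aim2-/- mouse 4. Depth limits calls of genes near 0.133 to 0.146 CPM. In the simulation, with far fewer changed genes than were called in the data, a 1.5-fold change was recovered in 57.9% of genes.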
